A study of Saccharomyces cerevisiae BY4741 with 4 samples.

Results

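The 10 genes described here encode translation elongation factors of budding yeast and the initiation factor eIF4A. Other elongation factor genes, such as EFB1 and ANB1, are outside this set and are given for comparison. They are TEF1, TEF2, TEF4, CAM1, EFT1, EFT2, YEF3, HYP2, TIF1 and TIF2, chosen by systematic name from a deposited table of H3K4me3 levels per gene, and all 10 were found among the 5219 genes listed there. H3K4me3, histone H3 trimethylated on lysine 4, was measured by chromatin immunoprecipitation of micrococcal nuclease-treated nuclei and sequencing. The tested strain, BY4741-spp1Δ, carries the KanMX6 drug resistance cassette in place of SPP1. The other strain is BY4741 itself, whose label gives the genotype MATa his3Δ1 leu2Δ0 ura3Δ0. Both were grown to log phase, at an optical density of 0.6, in rich medium with glucose, and Schizosaccharomyces pombe cells, 25% by volume, were added as a spike-in to make the strains comparable. Of 4 libraries, the levels of 2 were used, 1 for each strain, so every difference below is one between 2 libraries, with no replicate check and no p-value. A level in both strains was present for 5038 genes.

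Elongation factors carry the ribosome through each codon. eEF1A brings the charged tRNA, eEF1B reloads eEF1A with GTP, eEF2 moves the ribosome along, and eEF3, an ATPase of fungi, helps to release spent tRNA. eIF5A, which carries the modified lysine hypusine, aids peptide bond formation at difficult sequences, and eIF4A is the RNA helicase that opens the leader of the mRNA before the ribosome binds. Growing yeast transcribes many of these genes strongly, and several exist as a pair of copies. COMPASS, the complex around the methyltransferase Set1, places H3K4me3 near the 5′ end of transcribed genes, and Spp1 is its PHD finger subunit.

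As a check of the strain label, SPP1 itself had a level of 0.0982 in the spp1 deletion strain and 1.89 in wild type. Over all 5038 genes the median level was 0.494 in the spp1 deletion strain and 2.01 in wild type, and the median log2 ratio, the spp1 deletion strain over wild type, was -1.93. Percentiles below give the share of these genes with a lower value in the same library. Read depth is unknown. On the left arm of chromosome IV log2 ratios scattered more than elsewhere, with a standard deviation over genes of 1.06 against 0.52, and none of the 10 genes lies there.

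All 10 genes carried less H3K4me3 in the spp1 deletion strain than in wild type, as deposited. They kept between 19.7% of the wild-type level, at TEF4, and 53.1%, at EFT1. The median of their log2 ratios was -1.51, or 35.2% of wild type, 0.42 above the median of all genes, and 7 of the 10 lay above that median. This place depended on which genes were counted. Without the near-identical copies (TEF1, TEF2, EFT1, EFT2, TIF1 and TIF2), the remaining 4 genes differed from the all-gene median by -0.017. Of these 4, YEF3 and HYP2 lay above that median and TEF4 and CAM1 below it. TIF1, which was left out, also lay below it. With 1 mean value for each of the near-identical copy pairs the difference was 0.36. Whether having a copy as such sets this place was not tested. Below 50% of wild type were 9 of the 10, near the 93.8% of all genes that were. Below 25% were 3 of the 10 (TEF4, CAM1 and TIF1), against 44.6% of all genes. Levels ranged over 7.73-fold in the spp1 deletion strain and 3.22-fold in wild type. The authors' scaling sets the size of the loss. With each library divided by its own sum, which removes any factor common to a library, 7 of the 10 genes lay above wild type. These were all but TEF4, CAM1 and TIF1, the same 7 that lay above the all-gene median. The share of all genes above wild type at this scaling was not taken, so the count is not read as a trait of the 10 genes.

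**Figure D1:**
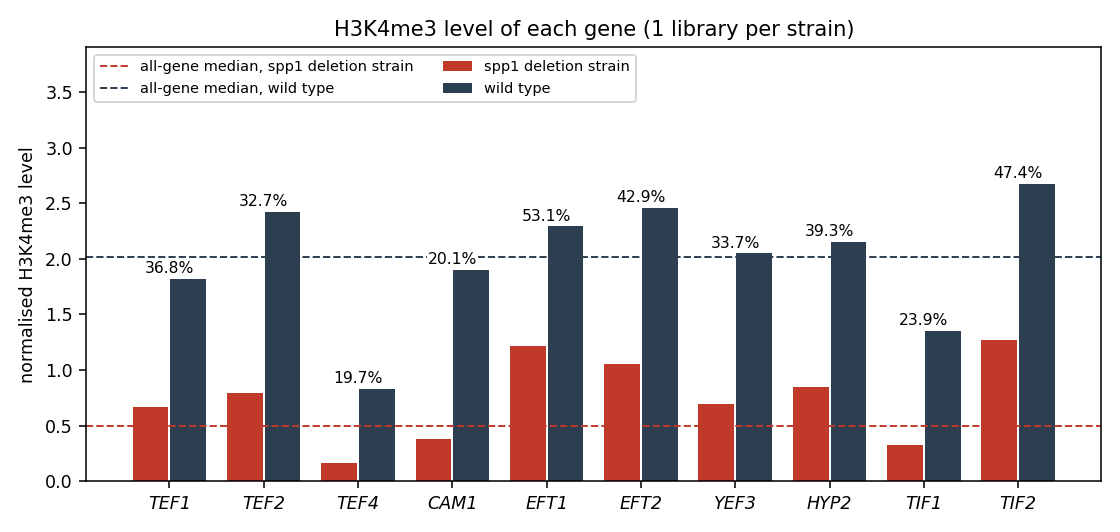
Normalised H3K4me3 level (vertical axis) of each of the 10 genes in the spp1 deletion strain (red bars) and in wild type (dark bars), 1 library each, with the percent of wild type above the bars and the all-gene medians as dashed lines. The red bars of TEF4, CAM1 and TIF1 are below the all-gene median of the spp1 deletion strain, 0.494, and the other 7 are above it.

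TEF1 and TEF2 both encode eEF1A, with the same protein sequence. TEF1 (YPR080W, chromosome XVI, 700594 to 701970) had a level of 0.670 in the spp1 deletion strain and 1.82 in wild type. TEF2 (YBR118W, II, 477671 to 479047) had 0.793 in the spp1 deletion strain and 2.42 in wild type. TEF1 thus kept 36.8% and TEF2 32.7%, a difference in log2 ratio of 0.17 between the copies. TEF2 was the more strongly marked copy in both libraries, by 1.18-fold in the spp1 deletion strain and 1.33-fold in wild type. In wild type the copies stood far apart among all genes, TEF1 at percentile 32.4 and TEF2 at 89.7. In the spp1 deletion strain they stood at 71.8 and 82.8, a change in percentile of 39.4 points for TEF1 and -6.93 for TEF2.

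TEF4 and CAM1 encode versions of eEF1Bγ, the subunit that joins the exchange factor to its partners. TEF4 (YKL081W, XI, 282891 to 284455) had a level of 0.164 in the spp1 deletion strain and 0.831 in wild type. CAM1 (YPL048W, XVI, 464401 to 465648) had 0.381 in the spp1 deletion strain and 1.90 in wild type. Kept shares were nearly equal, 19.7% at TEF4 and 20.1% at CAM1, although the levels differed by 2.32-fold in the spp1 deletion strain and 2.29-fold in wild type. TEF4 was the lowest of the 10 genes in both libraries, at percentile 2.02 in the spp1 deletion strain and 6.77 in wild type. Its level in the spp1 deletion strain was close to 0.149, the 1st percentile of that library, so its ratio compares a very low value. With the 1st percentile of each library subtracted, its log2 ratio of -2.34 became -4.93, that of CAM1 became -2.73, and the shares were no longer near each other. The annotation places a small nucleolar RNA gene, SNR38, inside TEF4 (283185 to 283279). EFB1, which encodes eEF1Bα, the catalytic subunit, had 0.851 in the spp1 deletion strain and 1.91 in wild type, or 44.5%. CAM1 and EFB1 therefore had unlike levels in the spp1 deletion strain and like levels in wild type.

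EFT1 and EFT2 encode the same eEF2 protein, the factor that diphtheria toxin inactivates. EFT1 (YOR133W, XV, 575098 to 577626) had a level of 1.22 in the spp1 deletion strain and 2.29 in wild type. EFT2 (YDR385W, IV, 1243230 to 1245758) had 1.05 in the spp1 deletion strain and 2.46 in wild type. EFT1 kept 53.1%, the highest share of the 10 genes and the only one at or above 50%, where 6.17% of all genes lay, and EFT2 kept 42.9%. The order of the copies differed between the libraries: EFT1 was higher by 1.16-fold in the spp1 deletion strain, and EFT2 by 1.07-fold in wild type. In the spp1 deletion strain both stood among the most strongly marked genes, at percentiles 96.2 and 93.6. In wild type EFT1 was at 79.95 and EFT2 at 91.5.

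YEF3 encodes eEF3 and is the longest of the genes, with 3135 bases. YEF3 (YLR249W, XII, 636780 to 639914) had a level of 0.691 in the spp1 deletion strain and 2.05 in wild type, or 33.7%. It stood at percentile 73.9 in the spp1 deletion strain and at 53.6 in wild type. Its paralog HEF3 was not analysed here. HYP2, the shortest with 474 bases, encodes the eIF5A used in the presence of oxygen. HYP2 (YEL034W, V, 85676 to 86149) had 0.847 in the spp1 deletion strain and 2.15 in wild type, or 39.3%, and stood at percentile 86.4 in the spp1 deletion strain and 65.6 in wild type. ANB1, the paralog that yeast uses when oxygen is scarce, had 0.251 in the spp1 deletion strain and 0.415 in wild type. HYP2 was thus 3.38-fold higher than ANB1 in the spp1 deletion strain and 5.19-fold higher in wild type. ANB1 had the larger share of the 2 at 60.4%, but its wild-type level was close to 0.362, the 1st percentile of that library.

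TIF1 and TIF2 encode the same eIF4A protein, and their H3K4me3 levels were the least alike of the 3 pairs of near-identical copies. TIF1 (YKR059W, XI, 554987 to 556174) had a level of 0.324 in the spp1 deletion strain and 1.35 in wild type. TIF2 (YJL138C, X, 153504 to 154691, on the reverse strand) had 1.27 in the spp1 deletion strain and 2.68 in wild type. TIF2 was the higher copy by 3.92-fold in the spp1 deletion strain and by 1.98-fold in wild type. TIF1 kept 23.9% and TIF2 47.4%, a log2 difference of -0.99, which was -0.60 with a pseudocount and -1.45 with background subtracted. TIF2 had the highest level of the 10 genes in both libraries, at percentile 96.7 in the spp1 deletion strain and 98.5 in wild type, whereas TIF1 was at 23.8 in the spp1 deletion strain and 14.4 in wild type.

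No identical values were found: none of the 10 genes shared its level with any other gene in either library. Among the other genes, 99 in 49 groups had both levels equal to those of another gene. The annotated lengths within the near-identical pairs were equal, at 1377 bases for TEF1 and TEF2, 2529 for EFT1 and EFT2 and 1188 for TIF1 and TIF2. The labels do not say how reads that match both copies were assigned, so the levels of these 6 genes are uncertain and may hold reads of the other copy. The duplicated genes for cytosolic ribosomal proteins give a scale for such differences. How reads that match both of those copies were assigned is likewise not stated. Pairs with a copy on the left arm of chromosome IV, where log2 ratios scattered more, are included. Over 53 pairs with both copies measured, the log2 ratios of the copies differed by a median of 0.33, with the middle 50% of pairs between 0.12 and 0.48. The difference within the TIF pair was larger than that of 49 of these 53 pairs, that of the EFT pair larger than 25, that of the TEF1 and TEF2 pair larger than 19, and that of TEF4 and CAM1 larger than 2. The TIF difference, 0.986, was just above the 0.984 of RPS9A and RPS9B. With the pseudocount TIF1 minus TIF2 was -0.60, and its place among the pairs was not taken at that setting. TEF4 minus CAM1 was 0.35 with the pseudocount and -2.21 with background subtracted. Its place was not taken at those settings either, so this pair cannot be called among the most alike. The largest difference, 1.95, was that of RPL35A and RPL35B, both on chromosome IV left. By level, the gap between TIF1 and TIF2 was larger than in 52 of the 53 pairs in the spp1 deletion strain and likewise in 52 in wild type. TEF4 and CAM1 exceeded 47 pairs in the spp1 deletion strain and 52 in wild type. For TEF1 and TEF2 these counts were 24 and 49, and for EFT1 and EFT2 21 and 22. The ribosomal protein copies and the factor copies were read from the same 2 libraries, and these counts are a description only.

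**Figure D2:**
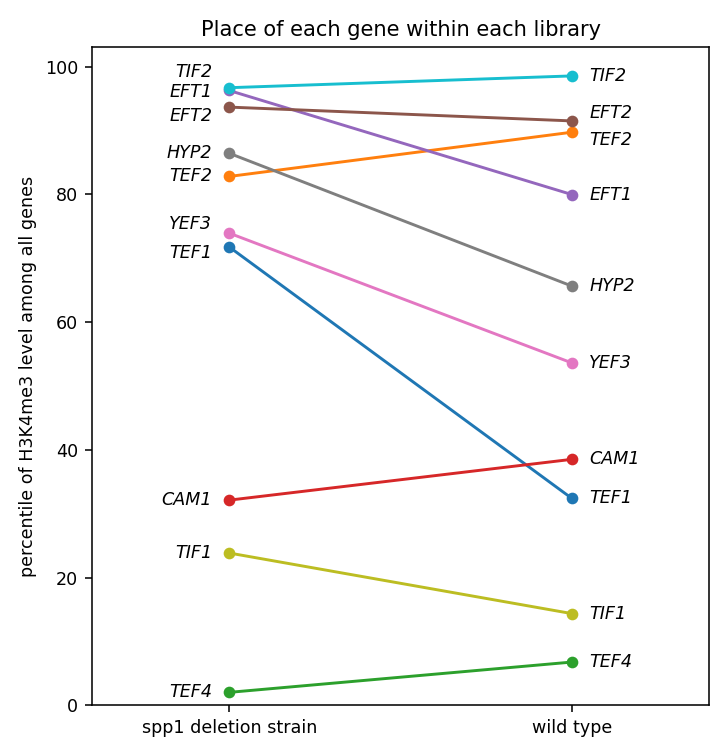
Percentile of the H3K4me3 level among all 5038 genes (vertical axis) for each of the 10 genes, in the spp1 deletion strain (left) and in wild type (right), with a line joining the values of a gene. TEF1 has the steepest line, at 71.8 in the spp1 deletion strain and 32.4 in wild type, and TIF2 is at the top and TEF4 at the bottom in both.

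Ranks within a library do not move with a factor common to that library. By this measure 6 of the 10 genes stood higher in the spp1 deletion strain than in wild type (TEF1, EFT1, EFT2, YEF3, HYP2 and TIF1) and 4 lower (TEF2, TEF4, CAM1 and TIF2). Among all genes, 2450 of 5038 stood higher. Rank and ratio did not always go together. TEF2 and TIF2 stood lower by rank, yet their log2 ratios were above those of 71.2% and 92.3% of all genes. TIF1 stood higher by rank, yet its log2 ratio was above that of only 40.0% of all genes. The order of the 10 genes by level was much the same in both libraries, with a Spearman correlation of 0.93 over the 10 genes and 0.76 over all genes. Genes with more H3K4me3 in wild type kept a larger share, with a correlation of 0.75 between wild-type level and log2 ratio over the 10 genes and 0.22 over all genes. The wild-type level is also the denominator of that ratio. Gene length had a correlation of 0.09 with the log2 ratio over the 10 genes and -0.11 over all genes. These points share their libraries and, for copies, perhaps reads, and the correlations are descriptions.

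**Figure D3:**
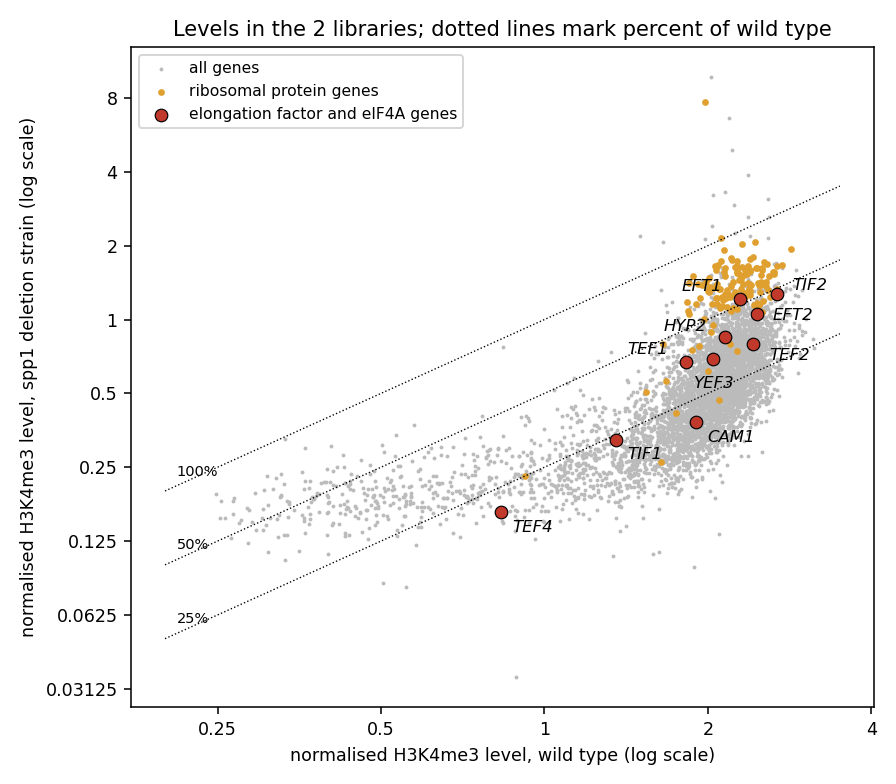
H3K4me3 level in the spp1 deletion strain (vertical, log scale) against that in wild type (horizontal, log scale) for all 5038 genes (grey), ribosomal protein genes (yellow) and the 10 genes (red, named), with dotted lines at 100%, 50% and 25% of wild type. EFT1 and TIF2 sit near the line at 50%, among ribosomal protein genes and others, TEF1, TEF2, YEF3 and HYP2 within the main body of genes, and TEF4 in the sparse region of low levels.

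The genes most like each of the 10 were sought by distance in the plane of log2 wild-type and log2 spp1 level, over 2 libraries, so likeness here means only like levels. The single nearest gene was a ribosomal protein gene for 2 of the 10, where 131 of the 5038 genes are ribosomal protein genes. These were RPS8B, nearest to EFT1, with 1.23 in the spp1 deletion strain and 2.32 in wild type, and RPS19A, nearest to TIF2, with 1.23 in the spp1 deletion strain and 2.61 in wild type. For the other 8 the nearest were ALD5 (to TEF1), AOS1 (to TEF2), YPR123C (to TEF4), HFD1 (to CAM1), KAP104 (to EFT2), CLC1 (to YEF3), MHR1 (to HYP2) and ADE17 (to TIF1). These distances ran from 0.0041 to 0.056 on the log2 scale, the largest being that of RPS19A to TIF2. Nearest to the median log2 levels of the 10 genes, whose median level was 0.742 in the spp1 deletion strain and 2.10 in wild type, were SAH1, PAM18, GET2, UBA4 and RRP46, none of them a ribosomal protein gene. SAH1, for example, which acts in the methyl cycle, kept 34.8% of its wild-type level.

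Set beside the other parts of the translation machinery, the 10 genes kept a smaller share than ribosomal protein genes. The 131 measured genes for cytosolic ribosomal proteins, of 137 annotated, had a median level of 1.37 in the spp1 deletion strain and 2.24 in wild type. Their members ranged from RPL41B at 15.9% to RPL35A at 390.8%, both on chromosome IV left. The 10 genes differed from them by -0.77 in median log2 ratio. At or above 50% of wild type lay 1 of the 10, against 108 of the 131 and 6.17% of all genes. Genes for eIF2, eIF2B and eIF3, which bring the initiator tRNA and hold the small subunit, had 13 of 14 measured, PRT1 being not analysed here. Their median was 45.9% of wild type, the difference of the 10 genes from them was -0.38, and they ranged from GCN3 at 23.5% to TIF35 at 74.6%. That difference shrank to -0.01 when genes under the median wild-type level were left out, which leaves 6 of the 10 genes (TEF2, EFT1, EFT2, YEF3, HYP2 and TIF2). It also takes out 3 of the 13 genes of the list, SUI3, GCD11 and TIF35, so both sides of the comparison changed.

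Other factors of elongation, termination and ribosome recycling, a list of 10 with 9 measured, had a median of 44.5% of wild type, and all 9 lay above the all-gene median. At the low end was GCN20, a partner of the Gcn2 kinase pathway, with 0.838 in the spp1 deletion strain and 2.57 in wild type, or 32.5%. At the high end was SUP35, release factor eRF3, with 1.68 in the spp1 deletion strain and 2.65 in wild type, or 63.5%. Of these 9 genes, 4 lay at or above 50% of wild type (ANB1, NEW1, STM1 and SUP35), against 6.17% of all genes. ANB1 counts among them with a wild-type level of only 0.415, close to 0.362, the 1st percentile of that library. Partners of eIF4A in eIF4F and other initiation factors, 14 of 14 measured, had a median of 44.9%, and all 14 lay above the all-gene median. In this list DBP1, a helicase gene, was lowest with 0.184 in the spp1 deletion strain and 0.677 in wild type, or 27.2%. FUN12, which encodes eIF5B, was highest with 1.13 in the spp1 deletion strain and 1.86 in wild type, or 60.8%. CDC33, the cap-binding eIF4E, kept 42.4%, and TIF4631, the scaffold eIF4G1, 45.7%, both between TIF1 and TIF2.

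The enzymes that modify elongation factors lay near the median of all genes. They make diphthamide on eEF2, hypusine on eIF5A and methyl groups on several factors, and 14 of 16 were measured. Their median was 23.6% of wild type, -0.16 from all genes, with 5 of the 14 above the all-gene median. None of the 14 lay at or above 50%, where 6.17% of all genes lay, so this count is near the share of all genes. EFM3, a methyltransferase of eEF2, was lowest with 0.300 in the spp1 deletion strain and 1.90 in wild type, or 15.7%. KTI11, needed for diphthamide, was highest with 0.770 in the spp1 deletion strain and 1.95 in wild type, or 39.5%. DYS1 and LIA1, which together form hypusine on the products of HYP2 and ANB1, kept 31.7% and 32.4%, below the 39.3% of HYP2.

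**Figure D4:**
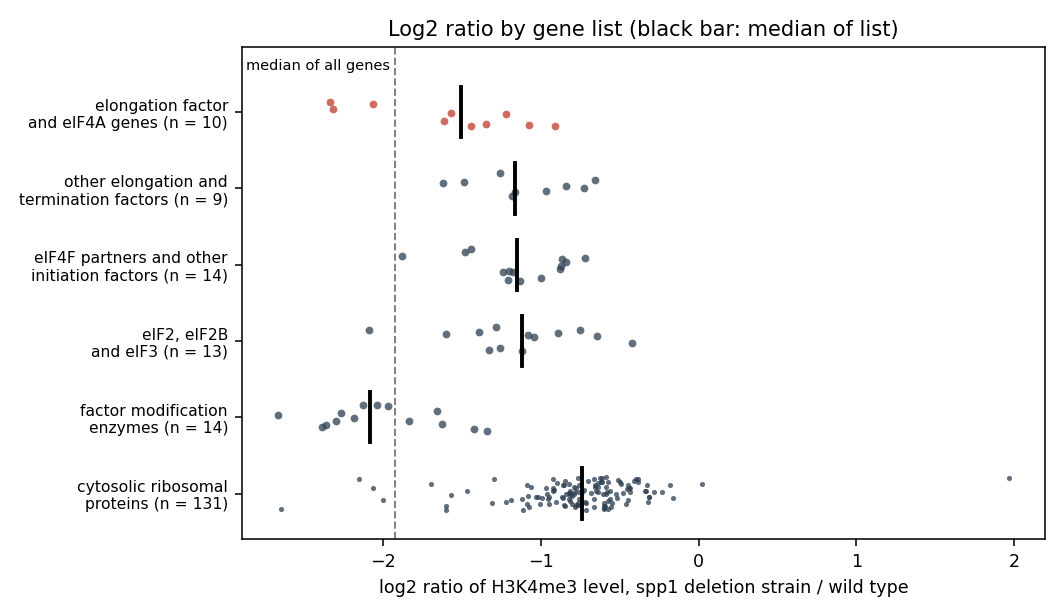
Log2 ratio of the H3K4me3 level, spp1 deletion strain over wild type (horizontal axis), for each gene (points) of the 10 genes and of 5 lists, with the list medians as black bars and the all-gene median of -1.93 as a dashed line; vertical scatter within a list has no meaning. The 10 genes fall into 3 points below the dashed line and 7 above it, and their median of -1.51 lies between that of the modification enzymes, -2.08, and those of the other 4 lists.

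The annotated protein-coding genes on each side of the 10 genes were looked at last, since a level may take in nucleosomes near a neighbour. Of the 20 neighbours 16 had levels in both strains, with a median of 23.6% of wild type, against 26.3% for all genes, and a range from 16.6% to 40.3%. None of the 16 reached 50%, which is near the 6.17% of all genes that did. The factor gene kept the larger share in 13 of these 16 comparisons. In the other 3 the neighbour did, namely RRP14 (30.3%) and VMA5 (28.0%) beside TEF4 and DIG1 (40.3%) beside CAM1. VMA5, like TEF4, had low levels, 0.196 in the spp1 deletion strain and 0.700 in wild type. The 16 comparisons are not separate cases, since a factor gene with both neighbours measured enters with each of them. Of the 10 genes, 7 lay above the median log2 ratio of all genes. RRP14 and DIG1 are each divergent from the factor gene, with 561 bases between the annotated genes in both cases. At EFT2, ATO3 kept 22.7% and MUS81 20.0%. At EFT1, VPS17, 267 bases upstream on the same strand, kept 32.3%. Beside TEF1, MRL1 kept 25.5% and GRS2 22.7%, and beside TEF2, MUD1 kept 24.5%. Next to YEF3, SSP120 kept 32.4%, close to the 33.7% of YEF3 itself, and RCK2 25.9%. The neighbours of HYP2, and TKL2 and BAG7 beside TEF2 and EFT1, were not analysed here.

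The eIF4A genes lie next to another pair of copies, GLG1 and GLG2, which encode glycogenin, the primer of glycogen synthesis. GLG1, 366 bases upstream of TIF1, had a level of 0.307 in the spp1 deletion strain and 1.60 in wild type, or 19.1%. GLG2, 293 bases upstream of TIF2, had 0.266 in the spp1 deletion strain and 1.45 in wild type, or 18.3%. The GLG copies thus differed by 0.06 in log2 ratio, where TIF1 and TIF2 differed by -0.99. On the other side UTP30, beside TIF1, kept 16.6%, and YUR1, beside TIF2, kept 19.6%. Setting the GLG pair against the TIF pair was a choice made after the values were seen.

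**Figure D5:**
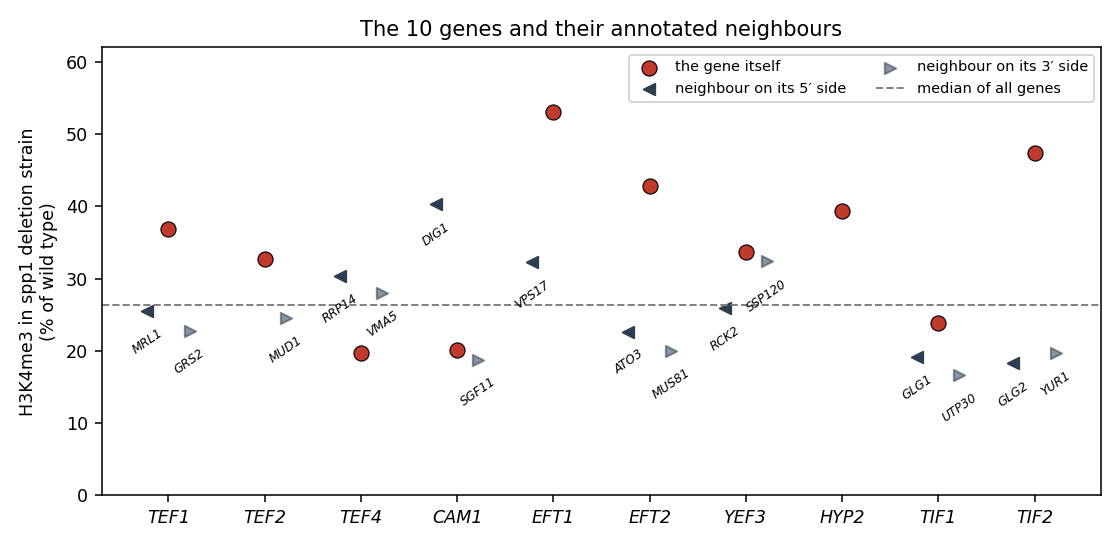
H3K4me3 in the spp1 deletion strain as a percent of wild type (vertical axis) for each of the 10 genes (red circles) and for the measured annotated neighbours on the 5′ side (dark triangles pointing left) and the 3′ side (grey triangles pointing right), with the all-gene median of 26.3% dashed. The red circle is the highest symbol at TEF1, TEF2, EFT1, EFT2, YEF3, TIF1 and TIF2 and is below a neighbour at TEF4 and CAM1, and at HYP2 no neighbour is drawn.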

How the data were processed

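The authors deposited 1 table with a normalised H3K4me3 signal per gene for each strain, per the file headers. No label states the part of the gene averaged, the scaling steps or any division by input. The submitters' processing notes name Bowtie2, SAMtools and bedtools, and the builds sacCer3 (budding yeast) and ASM294v2 (fission yeast). Read depth is unknown, so no counting interval is given.

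Each log2 ratio sets the spp1 deletion strain over wild type, using deposited values without pseudocount or filter (Python 3.11.15, pandas 2.3.3, NumPy 2.4.6). Calls are levels below 50% or 25% of wild type. Of 5219 systematic names, 5116 matched the RefSeq table of assembly R64, including all 10 genes; coordinates are 1-based from that table, and strands come from the systematic names. Protein and promoter sequences were not used here.

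The 10 genes and the comparison lists were chosen with earlier results of these data known. Genes named are the 10, SPP1, the partner factor gene EFB1, the paralog ANB1, the lowest and highest ratio of each list, adjacent annotated genes, and the genes nearest in level. CDC33, TIF4631, DYS1, LIA1, NEW1 and STM1 were added after their values were seen. The alternatives were a pseudocount (10% of the median in wild type), scaling to library sums, background subtraction, floors on wild-type level, exclusion of the left arm of chromosome IV, identical levels counted once, and the near-identical copies merged or left out. A check on simulated ratios covered only whether a set median log2 ratio was returned. The list, pair, neighbour and percentile steps were not tested in this way.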

Additional observations from a re-analysis of the deposited data

How the results depend on the processing

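With each library divided by its own sum, the median log2 ratio of the 10 genes turned to 0.25, those of EFT1, TIF2, EFT2, HYP2, TEF1, YEF3 and TEF2 turned to 0.85, 0.68, 0.54, 0.41, 0.32, 0.19 and 0.15, and 0 of the 10 were below 50% or below 25%, since this scaling removes the loss common to all genes. Differences from the all-gene median do not move with it. The difference of the 10 genes from all genes, 0.42, turned to -0.017 without the near-identical copies, and under the other 8 settings it lay above 0, up to 0.60 with background subtracted. Below 50% were 5 of the 6 genes left by the floor at the median wild-type level, and all 4 left without the near-identical copies. Below 25% were 0 genes with that floor and 0 with the pseudocount of 0.201, which draws ratios towards equality. The shares of all genes below 50% and 25% were taken only from the deposited values. These counts, and those with each library divided by its own sum, therefore have no all-gene share beside them and are not read as traits of the 10 genes. Within copy pairs the pseudocount and background subtraction gave, in that order, 0.19 and 0.19 for TEF1 minus TEF2, 0.27 and 0.36 for EFT1 minus EFT2, and -0.60 and -1.45 for TIF1 minus TIF2. For TEF4 minus CAM1 (-0.02) they gave 0.35 and -2.21, so no order of these 2 genes holds. The differences from ribosomal protein genes and from eIF2, eIF2B and eIF3 genes stayed below 0 under all 9 settings. The difference from eIF2, eIF2B and eIF3 genes was only -0.01 with the floor at the median wild-type level. Those of the other factor lists from all genes kept their sign under the 7 settings run on them. No paired analysis was possible because each strain has 1 library. Depth is unknown, and the size of any difference between cultures cannot be judged.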
